A study of Arabidopsis thaliana with 8 samples.

Results

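The genes described here are those encoded by the mitochondrial genome of Arabidopsis thaliana, measured in rosette leaves of droughted and watered plants. Members were the probe sets that stand for 1 gene of the mitochondrial genome, without probe sets that also list a nuclear copy on chromosome 2. By this rule 23 of the 22810 probe sets on the ATH1 array were members, and they stand for 16 genes. The annotation used listed no gene for 8730 probe sets, so mitochondrial probe sets among those could be missing. Membership came from annotation and used no measured value.

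RNA was taken from rosette leaves of soil-grown plants kept at 22 °C in 16 h of light and 8 h of dark, and 8 arrays were hybridised, 2 biological replicates for each of 4 groups. Droughted dor plants had 24 days of watering followed by 10 days with no irrigation, and watered dor plants received normal irrigation for 34 days. Droughted and watered WT plants, both Columbia, were treated in the same ways. The dor mutant carries the T-DNA insertion Salk-050074 in Columbia, so that it is 1 insertion line and 1 allele, and the labels name no rescued line. The labels do not say how many plants went into a sample. The p-values rest on the spread between arrays within groups, pooled over the 4 groups and drawn toward that of probe sets of similar intensity. In the fit of both genotypes together that spread also holds any difference between the drought responses. All arrays are taken as independent unless a block is named.

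The plant mitochondrial genome encodes a small set of proteins, nearly all of them subunits of the respiratory chain, of ATP synthase, of cytochrome c maturation or of the mitochondrial ribosome. The remaining subunits of these complexes are made from nuclear genes and imported. Several mitochondrial transcripts, nad1, nad2 and nad5 among them, are assembled by joining separately transcribed pieces. In plant mitochondria a poly(A) tail marks a transcript for decay, whereas standard Affymetrix labelling primes from oligo(dT), so a signal of a mitochondrial probe set need not follow the amount of functional transcript.

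Of the 23 members, 15 belonged to 8 genes of complex I, the NADH dehydrogenase that feeds electrons into the respiratory chain. The gene nad1 had 7 probe sets, nad5 had 2, and nad2, nad4, nad4L, nad6, nad7 and nad9 had 1 each. Complex IV, the terminal oxidase, was represented by cox1 and cox2. The cytochrome c maturation genes ccb203, ccb206, ccb382 and ccb452 had 1 probe set each, and current RefSeq names are ccmFN2, ccmB, ccmFN1 and ccmFC. The remaining members were orfX, now called mttB, and matR. A further 12 probe sets listed a mitochondrial gene together with another gene and were not members; they are described separately.

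Testing was limited to probe sets that reached the 40th percentile of an array on 2 or more of the 8 arrays. By this filter 17 members of 12 genes were tested, and 6 were not. None of the 17 passed through 1 group alone, since 14 reached that percentile on 8 arrays, 2 on 7 arrays and 1, nad5 257337_at, on 6. Differences below are on the log2 scale, between group means, each given with its standard error from a limma fit over all 15523 tested probe sets, and adjusted p-values are Benjamini-Hochberg values over that whole table.

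The arrays differed by replicate number. Median signals over all probe sets were 97.4 to 120.5 on replicate 1 arrays and 163.4 to 170.8 on replicate 2 arrays, although the deposited trimmed mean was 500 on each. The 12 poly(A) spike-in probe sets had geometric means of at least 337.1 on replicate 1 arrays and at most 104.4 on replicate 2 arrays. The ratio of the 5′ to the 3′ actin probe set, a sign of RNA integrity and labelling length, was 0.245 in watered dor and 0.229 in watered WT of replicate 1, against 0.366 to 0.575 on the other arrays. The leaf marker RCA, which activates Rubisco, read 9383 on the droughted dor array of replicate 1 and 21538 to 36420 on the other 7, and RCA was the 1 leaf marker of 6 with a named probe set. No marker of root, flower or seed had one. DOR (AT2G31470), the gene the mutant is named after, read 2.3 to 21.4 on the 8 arrays, below the tested range, so it gave no check of the genotype labels.

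Most mitochondrially encoded probe sets read higher in droughted leaves than in watered leaves, but no single member passed the test. The geometric mean of the 17 tested members was 217.2 and 333.1 in droughted dor, against 206.2 and 242.4 in watered dor. It was 323.4 and 262.5 in droughted WT, against 158.0 and 170.7 in watered WT. Watered WT held both of the lowest arrays, while the droughted and watered dor arrays lay closer together.

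**Figure D1:**
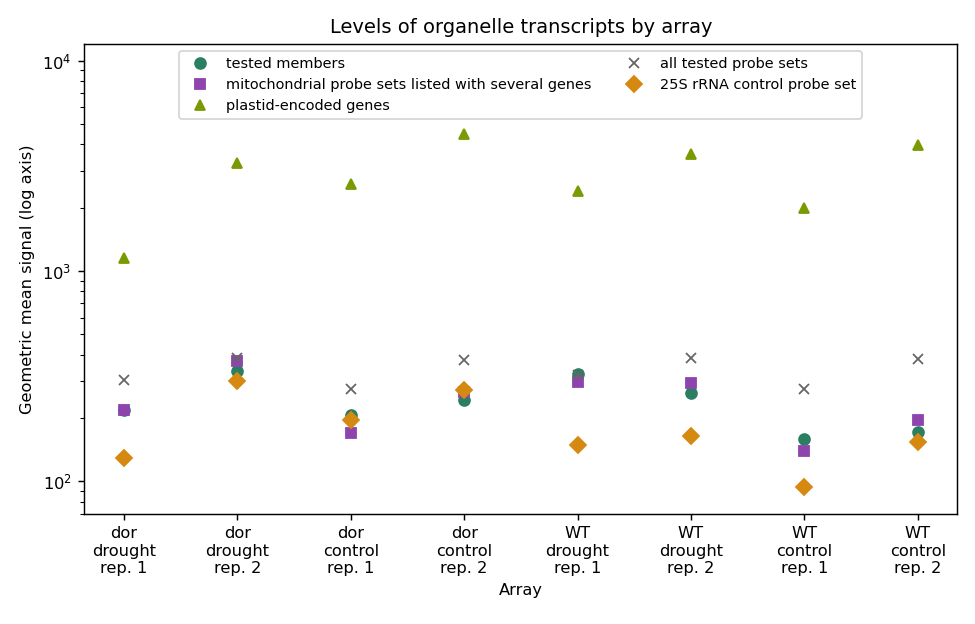
Geometric mean signal (log axis) of the 17 tested mitochondrially encoded probe sets on each of the 8 arrays, with the 11 tested probe sets that list several genes, 69 plastid-encoded probe sets, all 15523 tested probe sets and the 25S rRNA control probe set. The members read 158.0 and 170.7 in watered WT, the lowest values among the groups, and the plastid-encoded genes read lowest, 1149, on the droughted dor array of replicate 1.

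Drought in dor gave a positive difference for 12 of the 17 tested members, with a median of 0.34, against 55.8% positive and a median of 0.17 over all tested probe sets. None of the 17 had an adjusted p under 0.05, where 0.567% of all tested probe sets did. None had an unadjusted p under 0.05 either, against 15.7% of all. For 7 members both droughted dor arrays read higher than both watered dor arrays, which held for 26.5% of all tested probe sets, and for ccb206 both read lower, which held for 22.9%. The member median was 0.06 without the droughted dor array of replicate 2 and 0.55 without that of replicate 1.

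Drought in WT gave a positive difference for 16 of the 17, with a median of 0.88, against 56.0% positive and a median of 0.16 over all tested probe sets. Again none was called, where 0.00644% of all were, which is 1 probe set. At an unadjusted p under 0.05 there were 2 members, nad9 and cox1, against 9.55% of all tested probe sets. For 11 members both droughted WT arrays read higher than both watered WT arrays, which held for 22.9% of all. Centring each array on its median moved the median of all tested probe sets to 0.05 in dor and -0.0023 in WT, and the member medians were then 0.23 and 0.72.

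A different number of mitochondria or cells and a different amount of RNA in each cannot be told apart in these bulk samples. Other array measures differed between these groups as well, and their part in the result was not tested. The 25S rRNA control probe set read 128.9 and 299.0 in droughted dor, against 195.8 and 271.5 in watered dor. It read 148.3 and 163.6 in droughted WT, against 93.5 and 153.8 in watered WT. The actin ratio was 0.370 and 0.382 in droughted dor against 0.245 and 0.366 in watered dor, and 0.389 and 0.497 in droughted WT against 0.229 and 0.575 in watered WT. The ratio of the middle to the 3′ ubiquitin probe set was 0.43 and 0.44 in droughted dor, against 0.17 and 0.33 in watered dor. In WT this ratio was 0.63 and 0.55 under drought, against 0.18 and 0.41 in watered plants. It was higher on every droughted array than on any watered array, and highest on the droughted WT array of replicate 1.

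Both complex IV genes read higher on every droughted array than on any watered array. The gene cox1 encodes the catalytic subunit that reduces oxygen. Its signal was 1000.5 and 1063.3 in droughted dor, against 463.4 and 567.8 in watered dor. In droughted WT it was 1527.0 and 821.2, against 341.1 and 571.0 in watered WT. All 4 droughted arrays lay above all 4 watered arrays, with the droughted WT array of replicate 1 highest. The difference was 1.01 ± 0.58 in dor (adjusted p = 0.437) and 1.34 ± 0.58 in WT (adjusted p = 0.517).

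The gene cox2 encodes the subunit that takes electrons from cytochrome c. It read 262.8 and 291.7 in droughted dor, against 188.3 and 211.8 in watered dor. Droughted WT gave 278.0 and 260.9, against 148.0 and 112.3 in watered WT. The 4 droughted arrays fell within a narrow band above all watered arrays, and watered WT lay below watered dor. The difference was 0.47 ± 0.55 in dor (adjusted p = 0.704) and 1.06 ± 0.55 in WT (adjusted p = 0.569).

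**Figure D2:**
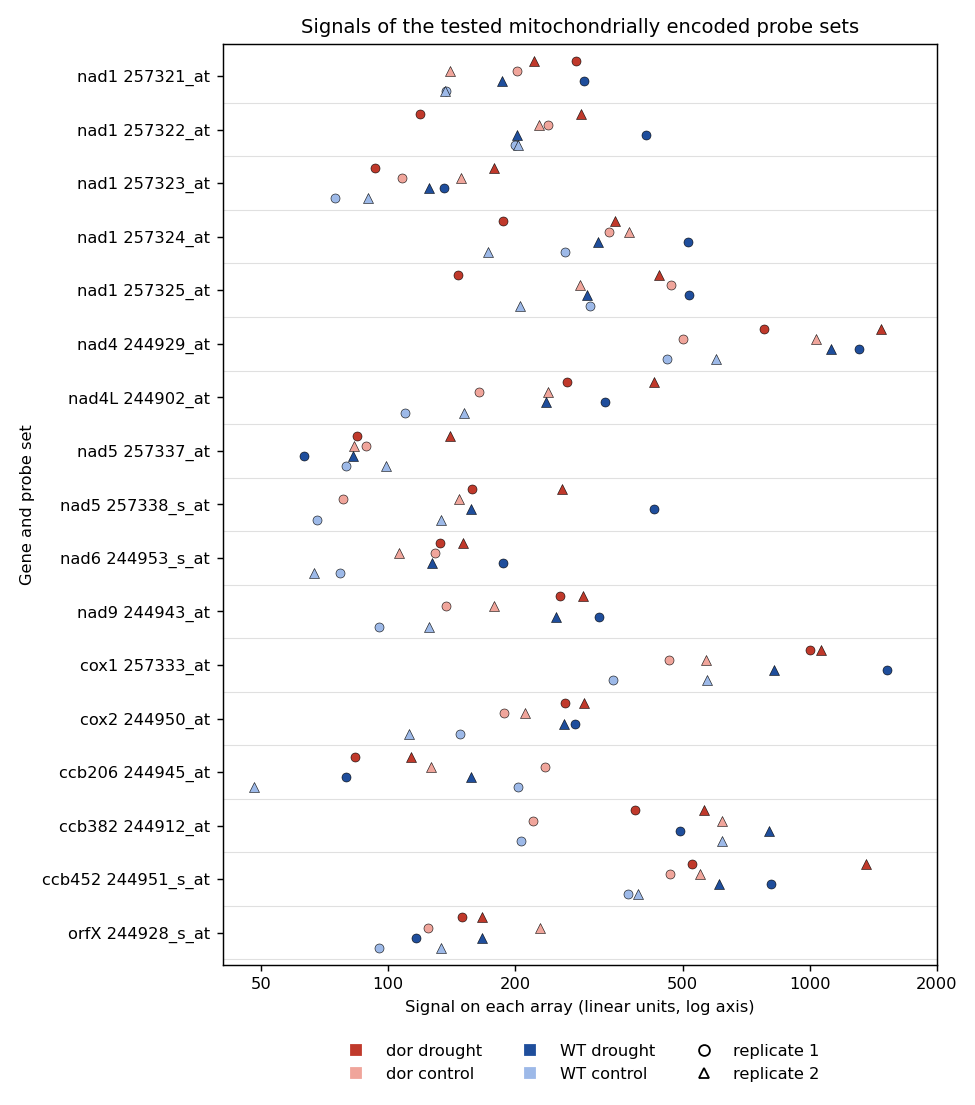
Signal of each tested mitochondrially encoded probe set on each array (linear units on a log axis), with droughted and watered dor in dark and light red and droughted and watered WT in dark and light blue, circles for replicate 1 and triangles for replicate 2. For nad5 257338_s_at, nad9, cox1 and cox2 the 4 droughted arrays lie above the 4 watered arrays, whereas ccb206 spreads from 48.2 to 236.1 with watered arrays at both ends.

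The complex I gene nad9 was separated in the same way. It encodes a subunit of the arm that reaches into the matrix. The signal was 255.4 and 290.2 in droughted dor, against 137.3 and 178.5 in watered dor. In droughted WT it was 317.0 and 250.9, against 95.0 and 124.9 in watered WT. The groups did not overlap in either genotype, with a difference of 0.80 ± 0.56 in dor (adjusted p = 0.521) and 1.37 ± 0.56 in WT (adjusted p = 0.497).

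The genes nad4, nad4L and nad6 encode subunits of the membrane arm, which moves protons. The probe set of nad4 read 781.3 and 1475.5 in droughted dor, against 500.7 and 1032.4 in watered dor. It read 1308.1 and 1123.7 in droughted WT, against 457.6 and 600.7 in watered WT. The dor arrays overlapped and the WT arrays did not, with differences of 0.58 ± 0.61 in dor and 1.21 ± 0.61 in WT (adjusted p = 0.674 and 0.557). For nad4L the signals were 266.4 and 426.9 in droughted dor, against 164.6 and 239.3 in watered dor. They were 326.8 and 236.7 in droughted WT, against 109.5 and 151.2 in watered WT. Droughted arrays lay above the watered arrays of their own genotype, with differences of 0.76 ± 0.59 in dor and 1.11 ± 0.59 in WT (adjusted p = 0.554 and 0.575). For nad6 droughted dor gave 133.1 and 150.6, against 129.0 and 106.3 in watered dor. Droughted WT gave 187.3 and 126.9, against 76.8 and 66.7 in watered WT. The dor groups were separated by a few units only, while watered WT lay well below the rest, with differences of 0.27 ± 0.62 in dor and 1.11 ± 0.62 in WT (adjusted p = 0.857 and 0.594).

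The membrane-arm gene nad5 had 2 tested probe sets that gave different patterns. The first, 257338_s_at, read 157.8 and 258.3 in droughted dor, against 78.1 and 147.1 in watered dor. In droughted WT it read 428.2 and 157.5, against 67.7 and 133.7 in watered WT. All droughted arrays exceeded all watered arrays, and the droughted WT array of replicate 1 stood far above the rest. Its difference was 0.91 ± 0.76 in dor (adjusted p = 0.584) and 1.45 ± 0.76 in WT (adjusted p = 0.573). The second, 257337_at, read 84.6 and 140.2 in droughted dor, against 88.9 and 83.2 in watered dor, and 63.1 and 82.5 in droughted WT, against 79.5 and 98.8 in watered WT. Its groups overlapped in both genotypes, with differences of 0.34 ± 0.69 in dor and -0.30 ± 0.69 in WT (adjusted p = 0.836 and 0.899). Over the 8 arrays the log2 signals of this pair correlated at r = -0.041, although both are listed for nad5.

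The 5 tested nad1 probe sets, for a membrane-arm subunit next to the quinone site, also split. The probe set 257321_at read 279.9 and 221.7 in droughted dor, against 202.8 and 140.4 in watered dor. In droughted WT it read 291.1 and 186.4, against 137.1 and 136.3 in watered WT. Droughted arrays were above the watered arrays of their genotype, with differences of 0.56 ± 0.58 in dor and 0.77 ± 0.58 in WT (adjusted p = 0.668 and 0.673).

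The probe sets nad1 257322_at, 257324_at and 257325_at had low signals on the droughted dor array of replicate 1. The first read 118.8 and 286.6 in droughted dor, against 239.0 and 227.7 in watered dor. The second read 187.1 and 344.5 in droughted dor, against 334.2 and 373.5 in watered dor. The third read 146.9 and 438.4 in droughted dor, against 468.3 and 284.6 in watered dor. In each case the replicate 1 array of droughted dor was the lowest of the 4 dor arrays. In WT, 257322_at read 408.3 and 202.5 under drought, against 199.9 and 203.4 in watered plants. The second, 257324_at, read 514.9 and 315.3 in droughted WT, against 262.5 and 173.0 in watered WT. The third, 257325_at, read 516.2 and 296.4 in droughted WT, against 300.6 and 205.1 in watered WT. Here the replicate 1 array of droughted WT was the highest of all 8 for each probe set.

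In dor the 3 differences were -0.34 ± 0.66, -0.48 ± 0.60 and -0.52 ± 0.71, and in WT they were 0.51 ± 0.66, 0.92 ± 0.60 and 0.66 ± 0.71. Adjusted p-values were 0.728 to 0.831 in dor and 0.635 to 0.804 in WT. Without the droughted dor array of replicate 1 the dor differences were 0.30 for 257322_at, -0.036 for 257324_at and 0.26 for 257325_at. Over the 8 arrays these 3 probe sets, grouped after their values were seen, correlated with each other at r = 0.824 to 0.891. The correlation of 257321_at with the other 4 nad1 probe sets was 0.157 to 0.313. All 10 pairs share arrays and labelling reactions.

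The last nad1 probe set, 257323_at, read 93.1 and 178.1 in droughted dor, against 108.0 and 148.9 in watered dor. It read 135.9 and 125.1 in droughted WT, against 74.7 and 89.7 in watered WT. The dor arrays overlapped and the WT arrays did not, with differences of 0.022 ± 0.66 in dor and 0.67 ± 0.66 in WT (adjusted p = 0.991 and 0.741). The sign in dor turned with quantile normalization (-0.097) and with median centring (-0.093).

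**Figure D3:**
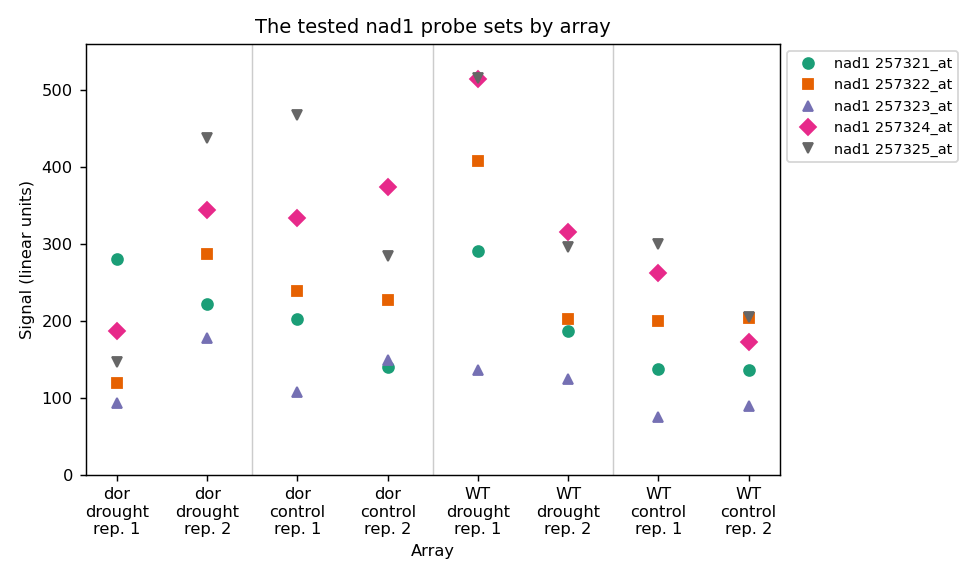
Signal of the 5 tested nad1 probe sets (linear units) on each of the 8 arrays, with vertical lines between groups. The probe sets 257322_at, 257324_at and 257325_at drop together on the droughted dor array of replicate 1 (118.8, 187.1 and 146.9) and peak together on the droughted WT array of replicate 1 (408.3, 514.9 and 516.2), while 257321_at reads 279.9 and 291.1 on those arrays.

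The cytochrome c maturation genes build the haem attachment machinery for c-type cytochromes. The gene ccb452 (ccmFC), part of the haem lyase, read 525.4 and 1360.5 in droughted dor, against 466.1 and 548.3 in watered dor. It read 810.6 and 607.8 in droughted WT, against 371.8 and 392.2 in watered WT. The droughted dor array of replicate 2 was the highest of all 8, and the WT groups did not overlap. The differences were 0.74 ± 0.61 in dor and 0.88 ± 0.61 in WT (adjusted p = 0.582 and 0.653).

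The gene ccb382 (ccmFN1), another haem lyase part, read 385.0 and 561.6 in droughted dor, against 220.9 and 621.2 in watered dor. It read 492.5 and 799.9 in droughted WT, against 206.8 and 618.2 in watered WT. In every group replicate 2 was higher than replicate 1, and the groups overlapped in both genotypes, with differences of 0.33 ± 0.76 in dor and 0.81 ± 0.76 in WT (adjusted p = 0.861 and 0.728). The gene ccb206 (ccmB), a transporter subunit, read 83.3 and 113.5 in droughted dor, against 236.1 and 126.8 in watered dor. It read 79.7 and 157.7 in droughted WT, against 202.9 and 48.2 in watered WT. It was the 1 member lower without overlap in droughted dor, and the watered WT replicates lay on opposite sides of the droughted ones. The differences were -0.83 ± 0.86 in dor (adjusted p = 0.667) and 0.18 ± 0.86 in WT (adjusted p = 0.951). The WT sign turned with quantile normalization (-0.015) and with low signals raised to the 40th percentile (-0.26).

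The gene orfX (mttB) encodes a TatC-like protein translocase subunit. It read 150.2 and 166.9 in droughted dor, against 124.7 and 229.1 in watered dor. It read 116.7 and 167.5 in droughted WT, against 95.1 and 133.6 in watered WT. The groups overlapped in both genotypes, with differences of -0.094 ± 0.64 in dor and 0.31 ± 0.64 in WT (adjusted p = 0.959 and 0.885).

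The 6 members that were not tested had low signals on nearly all arrays. For nad1 257327_at they were 14.0 to 106.5, for nad1 257329_at 6.2 to 75.0, for nad2 8.4 to 66.7 and for nad7 4.0 to 56.1. The gene matR, which encodes a maturase and lies within an intron of nad1, read 35.6 and 93.3 in droughted dor, against 2.9 and 4.0 in watered dor. It read 22.9 and 67.3 in droughted WT, against 4.0 and 23.9 in watered WT. The droughted dor arrays lay above the watered dor arrays, whereas the WT groups overlapped. For ccb203 (ccmFN2), part of the haem lyase, droughted dor gave 59.9 and 70.6, against 13.9 and 8.2 in watered dor, and droughted WT gave 23.6 and 45.3, against 19.9 and 4.9 in watered WT. Droughted arrays lay above the watered arrays of their genotype, but all 8 signals were below the 40th percentile of their array, which was 59.5 to 90.8.

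Within replicate numbers, the drought differences of the members were of unequal size. In dor the member median was 0.27 in replicate 1, with 11 of 17 positive, and 0.52 in replicate 2, with 13 positive. Over all tested probe sets the medians in dor were 0.26 and 0.034. In WT the member median was 1.09 in replicate 1 and 0.53 in replicate 2, with 15 of 17 positive in each, and those over all tested probe sets were 0.28 and 0.0071. Droughted and watered arrays of a genotype were matched here by replicate number only. Their replicate 1 minus replicate 2 deviations hardly correlated, at -0.036 in dor and 0.048 in WT. A positive difference in all 4 of these pairs was seen for 9 members, against 23.1% of all tested probe sets. Those 9 included cox1, cox2, nad9, nad4 and nad4L. For cox1 the differences were 1.11 and 0.91 in dor and 2.16 and 0.52 in WT, for replicates 1 and 2.

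**Figure D4:**
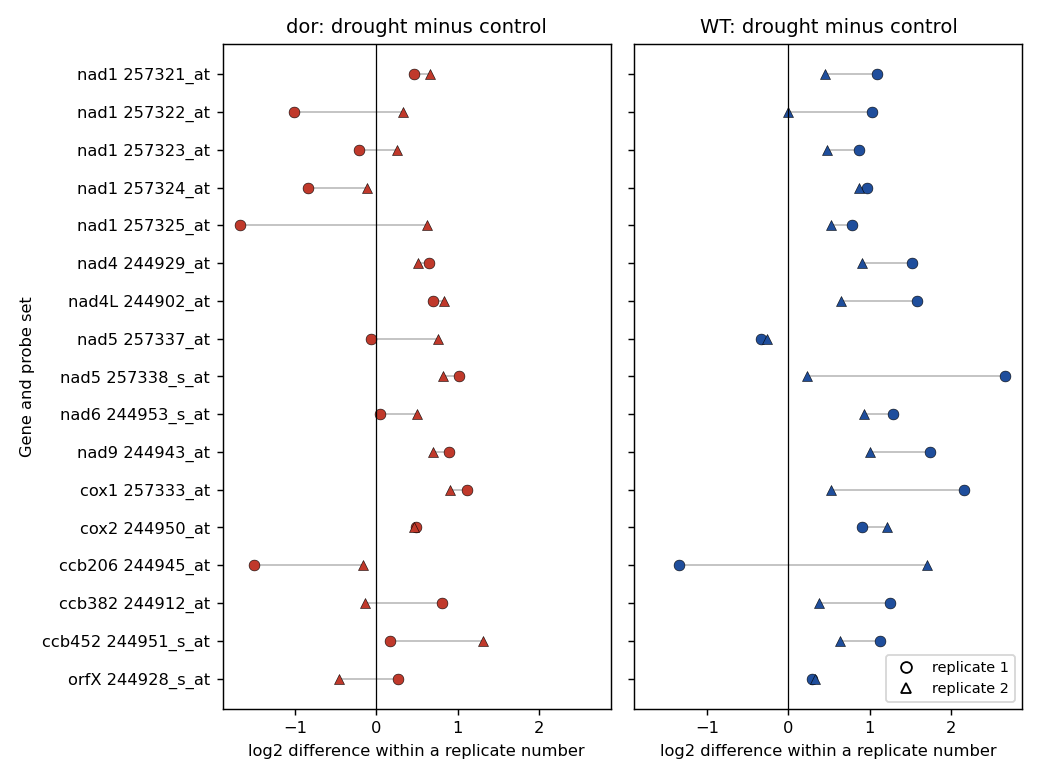
Drought minus control log2 difference of each tested member within replicate 1 (circles) and replicate 2 (triangles), for dor on the left and WT on the right. Arrays were matched by replicate number only. Both points of cox1, cox2, nad9, nad4 and nad4L lie right of 0 in both genotypes, and nad1 257325_at reaches -1.67 in replicate 1 of dor.

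With both genotypes in 1 additive fit, 4 droughted arrays were set against 4 watered arrays. The differences were positive for 16 of 17 members with a median of 0.67, against 56.2% and a median of 0.17 over all tested probe sets. No member was called, where 5.81% of all tested probe sets were. At an unadjusted p under 0.05 there were 4 members, nad4L, nad5 257338_s_at, nad9 and cox1, against 27.5% of all. The lowest adjusted p-values were those of cox1, with a difference of 1.18 ± 0.37 (adjusted p = 0.085), and nad9, with 1.09 ± 0.36 (adjusted p = 0.10). With condition and replicate number together as a random block these adjusted p-values were 0.344 and 0.385. The probe set nad5 257338_s_at gave 1.18 ± 0.50 (adjusted p = 0.165), nad4L 0.94 ± 0.38 (adjusted p = 0.148) and nad4 0.89 ± 0.40 (adjusted p = 0.183).

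In that fit cox2 gave 0.77 ± 0.35 (adjusted p = 0.191), ccb452 0.81 ± 0.39 (adjusted p = 0.210) and nad6 0.69 ± 0.41 (adjusted p = 0.301). The difference was near 0 for nad1 257322_at (0.087), nad1 257325_at (0.066), nad5 257337_at (0.022) and orfX (0.11), and the sign of these 4 turned negative with quantile normalization and with median centring. For 4 members, nad5 257338_s_at, nad9, cox1 and cox2, all droughted arrays read higher than all watered arrays, which held for 10.5% of all tested probe sets. For 7 members the droughted arrays read higher in each genotype by itself, which held for 14.2% of all. They were nad1 257321_at, nad4L, nad5 257338_s_at, nad6, nad9, cox1 and cox2.

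Over the 8 arrays the 136 pairs of tested members had a median correlation of log2 signals of 0.47, with 113 pairs positive and a range of -0.56 to 0.95. The probe set of ccb206 correlated positively with 5 of the 16 other members and nad5 257337_at with 7, while each remaining member did so with at least 12. All members were read on the same arrays.

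In watered plants most members read higher in dor than in WT, though no member passed the test. The difference was positive for 16 of 17 members, with a median of 0.52, against 48.6% positive and a median of -0.015 over all tested probe sets. No member was called, where 0% of all tested probe sets were, and none had an unadjusted p under 0.05, which 71 of the 15523 tested probe sets had. This fit takes dor and WT arrays of the same replicate number as independent. With the random block for condition and replicate number 626 probe sets had an unadjusted p under 0.05, and none was called. For 9 members both watered dor arrays read higher than both watered WT arrays, which held for 7.57% of all. Those 9 were 4 nad1 probe sets (257321_at, 257322_at, 257323_at and 257324_at), nad4L, nad6, nad9, cox2 and ccb452. Their 4 largest differences were 0.73 ± 0.60 for nad1 257324_at, 0.71 ± 0.62 for nad6, 0.63 ± 0.66 for nad1 257323_at and 0.63 ± 0.55 for cox2.

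The watered WT arrays are also the baseline of the WT drought comparison, so the watered difference and the WT drought difference are not independent. The member median was 0.35 within replicate 1 and 0.52 within replicate 2, with 17 and 15 of 17 members positive, and it was 0.33 without the watered dor array of replicate 2. With median centring 5 members, not 9, were higher without overlap. The 25S rRNA probe set read 195.8 and 271.5 in watered dor, against 93.5 and 153.8 in watered WT, and its part in the result was not tested.

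Under drought the members' differences between dor and WT had both signs. The difference of dor from WT was positive for 6 of 17 members with a median of -0.12, against -0.00089 over all tested probe sets. No member was called, where 0% of all tested probe sets were, and none had an unadjusted p under 0.05, which 492 of the 15523 tested probe sets had. With the random block 1891 probe sets had an unadjusted p under 0.05, and 1 was called higher and 21 lower, none of them a member. Both droughted dor arrays read higher than both droughted WT arrays for 1 member, nad5 257337_at, which held for 15.1% of all. The member median was -0.49 within replicate 1 and 0.37 within replicate 2. The extraction labels name RNAplant reagent with RNeasy for dor in replicate 1 and for WT in replicate 2, and RNeasy alone for the others, so genotype and extraction cannot be told apart within a replicate number, under drought or in watered plants. The pooled median turned to 0.041 without the droughted dor array of replicate 1 and to 0.086 without the droughted WT array of replicate 1.

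The difference of the 2 drought responses, dor minus WT, was negative for 16 of 17 members with a median of -0.57, against -0.0087 over all tested probe sets. No member was called, where 0% of all tested probe sets were, and none had an unadjusted p under 0.05, which 185 of the 15523 tested probe sets had, so a weaker drought response in dor was not shown for any member. With the random block 1079 probe sets had an unadjusted p under 0.05, and none was called. The most negative was nad1 257324_at, at -1.40 ± 0.85, and nad5 257337_at was positive at 0.64 ± 0.97. Within replicate 1 the member median of this difference was -0.88 with 1 of 17 positive, and within replicate 2 it was -0.22 with 8 positive. For the plastid-encoded genes the median of the same difference was -1.18 within replicate 1 and -0.35 within replicate 2, and none was called. Without the droughted dor array of replicate 1 the member median was -0.29. Over both conditions together, dor minus WT was positive for 13 of 17 members with a median of 0.24, and no member was called, where 0% of all tested probe sets were.

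**Figure D5:**
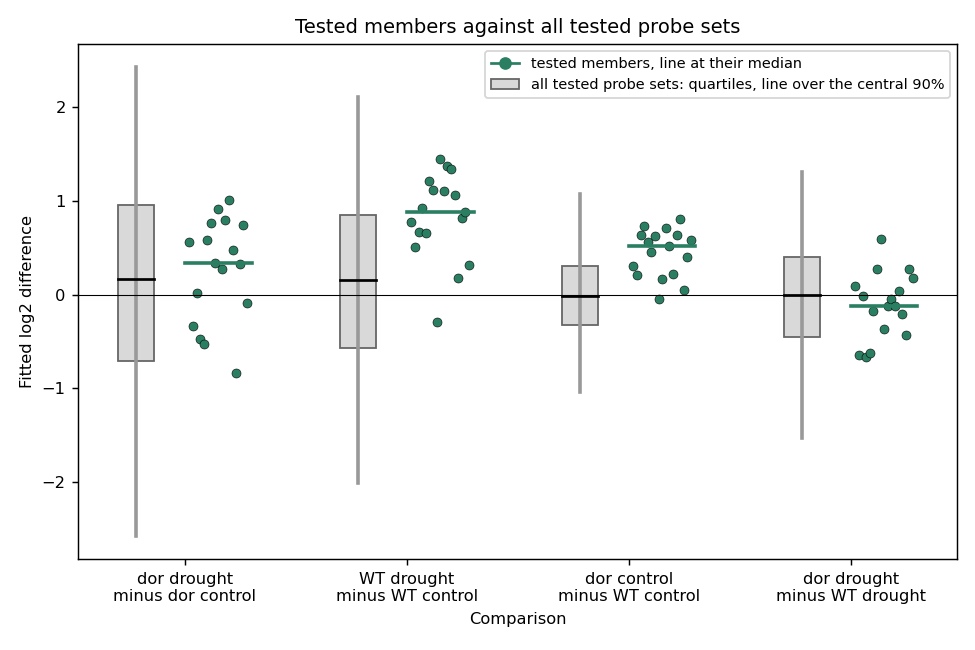
Fitted log2 differences of the 17 tested members (green points, line at their median) in 4 comparisons, beside the quartiles (box) and the central 90% (grey line) of all 15523 tested probe sets. The member medians are 0.34 for drought in dor, 0.88 for drought in WT, 0.52 for dor against WT in watered plants and -0.12 for dor against WT under drought, and all points lie inside the grey lines.

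A mitochondrial gene listed together with another gene was found on 12 probe sets, and 11 of these were tested. In all but rps3/rpl16, which lists 2 mitochondrial genes, the other gene is a nuclear copy on chromosome 2, so the source of the signal is uncertain. Whether the members also detect such copies was not checked. None of the 11 was called in either drought comparison or in the additive one. The median drought difference was 0.59 in dor and 0.77 in WT, with 8 and 10 of the 11 positive. The nad1 probe set of this kind, 265229_s_at, was negative in both genotypes, at -0.31 ± 0.82 in dor and -0.44 ± 0.82 in WT.

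These probe sets add genes with no member, and the 4 given here were chosen after their values were seen. The gene cob, the cytochrome b of complex III, read 201.1 and 203.6 in droughted dor, against 110.1 and 153.1 in watered dor, and 152.7 and 182.4 in droughted WT, against 78.9 and 114.1 in watered WT. The droughted groups lay above the watered groups in both genotypes. The gene cox3, of complex IV, read 186.1 and 337.6 in droughted dor, against 99.2 and 142.3 in watered dor, and 303.9 and 167.0 in droughted WT, against 107.2 and 161.7 in watered WT. All 4 droughted arrays exceeded the 4 watered ones, and the additive difference was 0.93 ± 0.42 (adjusted p = 0.187). For cob it was 0.73 ± 0.37 (adjusted p = 0.239).

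The ATP synthase genes atp1 and atp9 had less even replicates. The gene atp1 read 1282.8 and 1794.6 in droughted dor, against 348.9 and 2000.4 in watered dor, and 1842.7 and 1364.5 in droughted WT, against 302.0 and 821.9 in watered WT. The gene atp9 read 2866.2 and 5215.0 in droughted dor, against 2928.4 and 1711.1 in watered dor, and 4156.0 and 2351.1 in droughted WT, against 2387.6 and 1419.8 in watered WT. Both overlapped in dor, and the additive differences were 1.27 ± 0.59 for atp1 (adjusted p = 0.200) and 0.78 ± 0.39 for atp9 (adjusted p = 0.230). The 6 ribosomal protein probe sets (rpl2, rpl5, rps12, rps3/rpl16, rps4 and rps7) were positive in WT in all 6 cases, with a median of 0.85, and in dor in 4, with a median of 0.31.

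Plastid-encoded genes, the other organelle transcripts on the array, had mostly negative drought differences in dor and both signs in WT. Of 69 tested plastid probe sets 8 were positive in droughted dor, with a median of -0.83, and 33 in droughted WT, with a median of -0.017. None was called. Their geometric mean was 1149 and 3276 in droughted dor, against 2593 and 4464 in watered dor, and 2390 and 3615 in droughted WT, against 1998 and 3969 in watered WT. The droughted dor array of replicate 1 was the lowest of the 8 for the plastid genes, and it was the lowest dor array for the 3 nad1 probe sets named above.

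The tested nuclear genes for the respiratory complexes had more negative than positive drought differences. Of 26 listed genes 9 had a tested probe set, and their median drought difference was -0.37 in dor, -0.55 in WT and -0.56 in the additive fit. Positive differences numbered 3, 2 and 3 of the 9, against 55.8%, 56.0% and 56.2% of all tested probe sets. The locus AT3G15640 was the 1 called in the additive fit, where 5.81% of all tested probe sets were called. It fell by 2.25 ± 0.45 (adjusted p = 0.028), and with a random block for condition and replicate number its adjusted p was 0.169. The genes with RefSeq symbols given next were chosen after their values were seen. SDH1-1, SDH2-1 and SDH2-2, subunits of succinate dehydrogenase, gave 1.08 ± 0.64 (adjusted p = 0.297), 0.40 ± 0.49 (adjusted p = 0.617) and -0.55 ± 0.35 (adjusted p = 0.329). CYTC-1 and CYTC-2, the cytochrome c genes, gave -0.78 ± 0.43 (adjusted p = 0.271) and -0.56 ± 0.78 (adjusted p = 0.664). FRO1, a complex I subunit, gave -0.74 ± 0.39 (adjusted p = 0.250). The remaining tested loci, AT5G47030 and AT5G11770, gave -0.85 ± 0.34 (adjusted p = 0.145) and 0.71 ± 0.33 (adjusted p = 0.196).

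Of 13 listed nuclear genes for alternative respiration and mitochondrial stress, 4 had a tested probe set. AT5G09570 rose by 3.25 ± 0.49 in the additive fit (adjusted p = 0.013, and 0.167 with the random block). It was the 1 of these called there, where 5.81% of all tested probe sets were called. NDB2, an external NAD(P)H dehydrogenase that bypasses complex I, gave 0.71 ± 0.45 (adjusted p = 0.330). The remaining 2 loci, AT2G21640 and AT5G51440, gave 0.0015 ± 0.55 and 1.07 ± 1.62. Of 4 listed genes for mitochondrial transcription and RNA decay 2 were tested, AT5G15700 at 0.79 ± 1.25 and AT5G14580 at -0.68 ± 1.04, and neither was called.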

How the data were processed

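Leaf RNA from 8 samples was hybridised to ATH1 arrays. The deposited intensity values, 1 linear signal per probe set and array, were made with GCOS and MAS5 per the submitters' processing notes, versions not given in the sources used here. Detection calls were not used, and 0 value columns were left unmapped. The authors' scaling was kept, signals under 1 were raised to 1, and values were put on the log2 scale. The 64 control probe sets were left out. Genes came from the probe table, which lists no mitochondrial locus identifiers, so members were matched by symbol to the mitochondrial genes of the RefSeq table (TAIR10.1), used for names only.

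Comparisons used limma 3.58.1 in R 4.3.3 (4 group means, or condition plus genotype, eBayes with intensity trend), two-sided, at an adjusted threshold of 0.05. The pipeline was tested on simulated data. There a drought change of 2 on the log2 scale was called for 5.97% of changed probe sets in dor and 7.46% in WT. In the additive fit it was called for 31.3%. The simulated noise was independent between arrays, whereas same-numbered arrays of a condition deviated together here, so these rates need not hold for the real arrays. Every member difference was smaller than that change, so a missing call does not show that a member was unchanged. The rule names every tested member with each array's value, AT5G15700, and up to 3 called loci of each other list; other loci were named after their values were seen. Members and lists were chosen with earlier results of these data known. Alternatives were other normalizations, filters, offsets, variance models, blocks and probe set choices, and leaving out arrays. Leaving out both replicate 1 controls and recounting overlaps were chosen after seeing the data. Figures used matplotlib 3.10.9.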

Additional observations from a re-analysis of the deposited data

How the results depend on the processing

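No member passed the threshold in any comparison under any of the 20 other settings whose fits gave member values. Directions were counted for drought in dor, drought in WT, dor against WT in watered plants and the additive drought fit only. Of 1323 member values in these comparisons 1272 kept their direction and 51 turned sign. The lowest adjusted p among them was 0.0599, for nad9 in the additive drought fit with the replicate block. That block changed no call of a member. Replicate numbers were checked through the correlation of replicate 1 minus replicate 2 deviations between groups. It was 0.40 between the droughted groups and 0.59 between the watered ones, and -0.036 to 0.053 between droughted and watered groups. Same-numbered dor and WT arrays of 1 condition thus deviated together probe set by probe set, and droughted and watered arrays hardly did. This correlation leaves out shifts of a whole array. Median signals and spike-in signals did differ by replicate number in both conditions. The random block for condition and replicate number had a consensus correlation of 0.659 with group means and 0.608 in the additive model. The replicate block moved the additive drought calls among all probe sets to 824 higher and 858 lower, against 441 and 461 without it, and the random block left 9 and 3. The extraction label as a block gave 218 and 169. The call of AT3G15640 was lost in 8 of 19 settings and that of AT5G09570 in 2.

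Member medians depended on which probe sets counted. For drought in dor the median was 0.52 with the 60th percentile filter and 0.52 with 1 probe set per gene. For dor against WT in watered plants it was 0.40 with no filter. For the additive drought fit it was 0.44 with quantile normalization, 0.53 with median centring, 0.58 with low signals raised and 0.79 with 1 probe set per gene. For the difference of the drought responses 5.88% of members were positive, against 13.0% with no filter, 14.3% with the several-gene probe sets and 0% with the 60th percentile filter or 1 probe set per gene. Members higher without overlap numbered 4 for drought in dor with quantile normalization, and with median centring 7 for drought in WT and 5 for dor against WT in watered plants. For dor against WT under drought the count was 2 with quantile normalization or median centring and 0 with low signals raised.

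Signs that turned with the scaling lay near 0. In droughted dor nad1 257323_at gave -0.097 with quantile normalization and -0.093 with median centring. In droughted WT ccb206 gave -0.015 with quantile normalization and -0.26 with low signals raised. In the additive drought fit quantile normalization gave -0.096 for nad1 257322_at, -0.070 for nad1 257325_at, -0.045 for nad5 257337_at and -0.048 for orfX. Median centring gave -0.052, -0.073, -0.12 and -0.030 for the same 4.

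Leaving out arrays gave these ranges. The member median ran from 0.056 to 0.55 for drought in dor, 0.33 to 0.63 for dor against WT in watered plants and 0.52 to 0.75 for the additive drought fit. Positive members made up 17.6% to 58.8% for dor against WT under drought and 5.88% to 29.4% for the difference of the drought responses. In droughted dor the difference ran from -0.97 to 0.30 for nad1 257322_at, -0.45 to 0.49 for nad1 257323_at, -1.31 to 0.26 for nad1 257325_at and -0.024 to 0.71 for nad5 257337_at. It ran from -0.42 to 1.07 for ccb382 and -0.53 to 0.34 for orfX. In droughted WT ccb206 ran from -0.86 to 1.22. For dor against WT in watered plants the ranges were -0.066 to 0.98 for nad4, -0.25 to 0.11 for nad5 257337_at and -0.32 to 0.66 for nad5 257338_s_at. They were -0.15 to 0.59 for cox1, -0.23 to 1.84 for ccb206 and -0.74 to 0.84 for ccb382. In the additive drought fit they were -0.20 to 0.43 for nad1 257322_at, -0.060 to 0.54 for nad1 257324_at and -0.21 to 0.50 for nad1 257325_at. They were -0.19 to 0.16 for nad5 257337_at, -0.84 to 0.42 for ccb206, -0.20 to 0.92 for ccb382 and -0.23 to 0.32 for orfX. A group left with 1 array was assumed to vary like the others. The cause of these shifts was not tested beyond the change each setting makes. Signals near the 40th percentile of an array, as for nad5 257337_at, ccb206, nad6 and nad1 257323_at, limit what these arrays can show.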
